A study of Mus musculus with 8 samples.

Results

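Megakaryocyte progenitors of the mouse bone marrow were selected on 6 measured genes from sorted HSPCs, by their UMIs (unique molecular identifiers, which count captured RNA molecules), and their response to IFNα was followed mouse by mouse. A cell entered the megakaryocyte gate with at least 1 UMI of Pf4, at least 1 UMI in at least 2 of the 4 partner genes Gp1bb, Treml1, Gp5 and Rab27b, and under 5 UMIs of Elane per 10000 of its UMIs. Of 10046 kept cells, 1004 met this rule, with 199 in control and 129, 396 and 280 at 3, 24 and 72 h after the injection.

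The study compared PBS with a time course of IFNα in wildtype C57Bl/6 mice aged 12-14 weeks. Treated mice had a subcutaneous injection of 50000 IU recombinant mouse IFNα per 20 g, 3, 24 or 72 h earlier, and control mice 100 µl of PBS. Lin- cKit+ (LK) cells were sorted together with additional LK CD150+ CD48- CD34- cells, a gate that enriches for HSCs, and 4 hashtag antibodies marked 4 mice within each pooled library. The sort therefore sets how large a share any progenitor can take, and because each time point was 1 droplet library, the effects of time and of library cannot be told apart. Between 41 and 161 cells per mouse passed the gate at 24 and 72 h, 20 to 43 at 3 h, and 60, 71 and 60 in control mice 1 to 3, while control mouse 4 had 58 kept cells of which 8 were gated. Control mouse 4 was left out of the tests of genes, which used 15 mice and 3 controls. The gated cells of a tested mouse held between 272658 and 3150412 UMIs, the lowest numbers at 3 h. A gated cell had a median of 16624 UMIs in the control library and of 12626, 18795 and 16268 UMIs in the 3, 24 and 72 h libraries, so a gene was least likely to be detected in a cell of the 3 h library. Of 155 cell barcodes shared between a pair of libraries, 3 were kept cells and 0 were gated. Since p-values come from the spread between hashtagged mice within single libraries, they do not cover the variation between libraries.

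Megakaryocytes are the bone marrow cells that shed platelets. Their progenitors arise from HSCs and from progenitors shared with the erythroid lineage, depend on thrombopoietin, and express GATA1, FLI1 and NFE2 as lineage transcription factors before the late proteins of the platelet appear. Type I interferons such as IFNα bind the receptor IFNAR1/IFNAR2, and the receptor signal activates the transcription factor complex ISGF3, which holds STAT2 and IRF9. The complex binds interferon-stimulated response elements in the promoters of interferon-stimulated genes (ISGs).

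Genes outside the rule were used to check the label. In control, Itga2b, the αIIb chain of the fibrinogen receptor, stood at 252 CPM (the counts of a gene scaled to a common total of UMIs) in the gate, 26 CPM in cells gated on the stem cell gene Hlf, 16.2 CPM in cells gated on the erythroid genes Klf1 and Car1, and 10.1 CPM in Elane-high granulocyte progenitors. Vwf, the von Willebrand factor of platelet α-granules, stood at 60.8 CPM against 12.3, 2.5 and 0.4 CPM in the same order. Gp9, a subunit of the von Willebrand factor receptor, stood at 97.8 CPM against 17.5, 8.5 and 3.4 CPM. A UMI of Itga2b was found in 88.7% of the gated cells and in 20.4% of the Elane-high cells, although the Elane-high cells were deeper, with medians of 23991 to 34091 UMIs per library. Other platelet genes were low over all gated cells, with Clec1b, the receptor CLEC-2, at 9.33 CPM and Ppbp, a chemokine of α-granules, at 6.70 CPM. Tubb1, the β1-tubulin of the platelet marginal band, was at 0.22 CPM and Gp6, the collagen receptor, at 0.17 CPM.

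The rule met a continuum. Gated cells had a median of 10 Pf4 UMIs, with quartiles at 2 and 65 and a highest cell at 700, and 193 of them had exactly 1. With 2, 3 and 4 partner genes detected there were 352, 323 and 329 cells, in which Pf4, given here as a description because the rule uses it, stood at 696, 2303 and 5514 CPM. Along the same classes Itga2b stood at 137, 216 and 283 CPM, Vwf at 21.2, 42.5 and 76.1 CPM, and Clec1b, the podoplanin receptor of platelets, at 1.4, 4.0 and 20.3 CPM. The erythroid enzyme gene Car1 went the other way, from 372 to 18.3 and 9.7 CPM, and Hlf from 57.2 to 29.4 and 27.6 CPM. The 193 gated cells with exactly 1 Pf4 UMI held Car1 at 631 CPM, against 131 CPM over all gated cells. Just outside the rule were 473 cells with Pf4 and 1 partner gene, 316 with at least 2 partner genes and no Pf4, and 6 held back by Elane alone. Among the gated cells, 160 (15.9%) also met the conditions of the Hlf gate, 55 (5.48%) had UMIs of both Klf1 and Car1, and 39 (3.88%) were high in genes of other lineages. UMIs of both Klf1 and Car1 were found in 5.0, 7.04, 6.67 and 12.5% of the gated cells of the control mice. At 3 h, where the cells were shallower, they were found in 0 of 129, which sets no limit on the share of expressing cells. The Hlf conditions were met by 16.7, 14.1, 10.0 and 12.5% in control and by 5.0, 0, 11.6 and 8.57% at 3 h. After thinning to 4000 UMIs the Klf1 and Car1 shares were 0, 2.82, 3.33 and 0% in control and 0% in each 3 h mouse. The thinned Hlf shares were 5.0, 1.41, 3.33 and 0% in control and 0, 0, 0 and 2.86% at 3 h. The thinned shares overlapped between these groups, and no difference in them was tested.

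The share of kept cells in the gate asked whether IFNα changed how many LK cells carried this program. It was 7.26, 9.29, 7.27 and 13.8% in control mice 1 to 4, the last from 8 cells. It was 6.06, 8.47, 7.01 and 9.94% at 3 h, 10.6, 13, 11.8 and 9.61% at 24 h, and 12.8, 10.2, 6.70 and 15.7% at 72 h. The mice of every time point overlapped those of the control, at 24 h through control mouse 4 alone. The control mean was 9.4% ± 3.08 (SD, n = 4), and the means after IFNα were 7.87% ± 1.70, 11.3% ± 1.47 and 11.4% ± 3.83 at the 3 times (n = 4 each). The differences from control of -1.53, 1.85 and 1.95 percentage points did not pass a two-sided exact permutation test of mice (p = 0.486, 0.314 and 0.486, each 0.486 after adjustment over the 3 times). Without control mouse 4, all 4 mice at 24 h were above the controls, and the differences were -0.068, 3.32 and 3.41 points (exact permutation p = 0.971, 0.0571 and 0.229, adjusted p = 0.971, 0.171 and 0.343), where 0.0571 is the smallest p that 3 against 4 mice can give. A cell with more UMIs meets the rule more easily, and after every kept cell was thinned to 4000 UMIs the means were 3.45% ± 0.548, 3.55% ± 1.12, 3.87% ± 0.571 and 3.80% ± 1.83. The detection of Pf4 itself moved with the library: 19, 20.2, 31.4 and 29.4% of kept cells had a Pf4 UMI, and so did 9.47, 4.75, 15.7 and 11.4% of the Elane-high cells. Whether the Pf4 UMIs of the Elane-high cells are background was not tested. The part of free RNA in the gate was not tested.

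**Figure D1:**
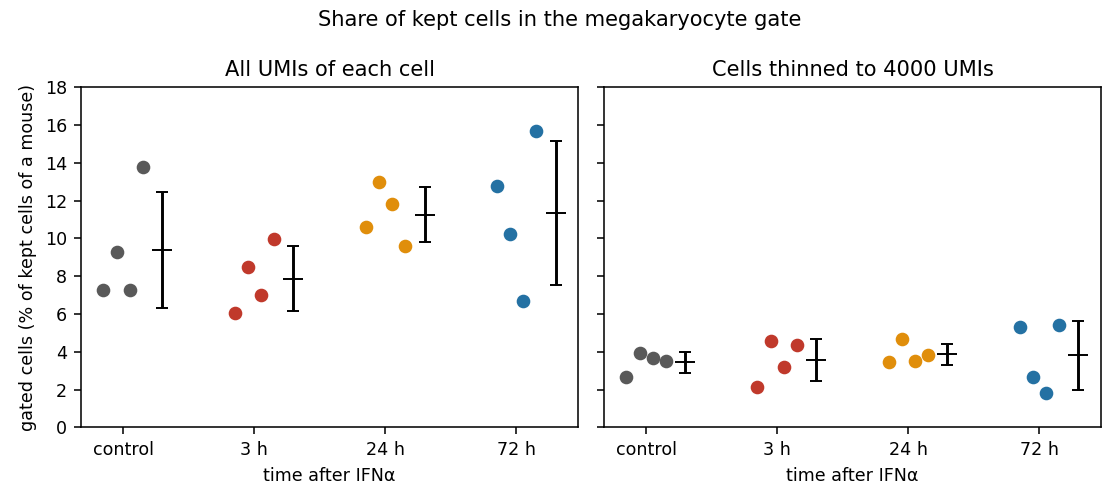
Share of kept cells in the megakaryocyte gate (percent, y axis) for each of the 4 mice of each group (points), with all UMIs and after thinning to 4000 UMIs per cell, and the mean ± SD of the group. Control mouse 4, at 13.8%, rests on 8 gated cells, and on the scale of all UMIs the mice at 24 h overlap the controls through it alone.

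For the gene comparisons, UMIs of the gated cells were summed per mouse and tested with edgeR's quasi-likelihood F test, and the mice of the 3 comparisons share the same 3 controls. CPM values from here on are scaled with TMM factors unless said otherwise, and fold changes are on the log2 scale ± SE. A gene was called where its p, adjusted by Benjamini-Hochberg over all 8453 tested genes, was under 0.05 and its log2 fold change was beyond 1 in either direction. At 3 h, 313 genes were called (3.70% of those tested), 280 higher (3.31%) and 33 lower (0.390%). At 24 h there were 71 (0.840%), 58 higher (0.686%) and 13 lower (0.154%), and at 72 h 77 (0.911%), 43 higher (0.509%) and 34 lower (0.402%). Without the limit on the fold, 7.11% of the genes rose and 1.86% fell at 3 h, 2.93% and 1.44% at 24 h, and 3.12% and 2.11% at 72 h. Over all tested genes the median log2 change was -0.038, -0.0073 and -0.0013. With the library size alone in place of TMM it was -0.20, -0.053 and -0.050, and the calls at 3 h split into 230 higher and 101 lower, so the number of called falls at 3 h depends on the scaling. DESeq2 gave 274 higher and 11 lower at 3 h, 41 and 2 at 24 h, and 35 and 16 at 72 h. After thinning to 4000 UMIs per cell, 188 genes were called at 3 h, and the counts at 24 and 72 h were lower too. Without 24 h mouse 2, 47 genes were called at 24 h. A sum over gated cells cannot tell less RNA in each cell from fewer cells that express the gene.

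Most listed ISGs rose in the megakaryocyte progenitors at 3 h, fewer were raised at 24 h, and no gene of 5 interferon lists was called at 72 h. Of 32 tested antiviral effectors, whose products act on viral entry, RNA or release, 29 rose at 3 h, 14 at 24 h and 0 at 72 h, with list medians of 4.29, 1.36 and 0.14. Of the 32 effectors, 2 had an unadjusted p under 0.05 at 72 h, and 1 was called with DESeq2 and 1 with edgeR's likelihood ratio test, where 0.509% of all genes were called higher. All 9 tested interferon-inducible GTPases rose at 3 h (median 3.48) and 6 at 24 h (median 1.44). At 72 h all 9 were above the control mean (median 0.41), 3 had an unadjusted p under 0.05, and 1 was called with DESeq2 and 2 with the likelihood ratio test. All 8 tested feedback inhibitors rose at 3 h (median 2.05) and 2, Usp18 and Isg15, at 24 h. Among 5 tested nucleic acid sensors, Ddx58, Ifih1, Dhx58 and Mb21d1 rose at 3 h and Dhx58 at 24 h, but the last call (log2 1.44) was lost without control mouse 1 (1.14) or 24 h mouse 2 (1.17).

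Isg15, a ubiquitin-like protein joined to other proteins during antiviral responses, stood at 16.7, 25.9 and 15 CPM in the 3 control mice, at 1544, 1432, 1568 and 1500.4 CPM at 3 h, at 46.7, 106, 66.8 and 81.3 CPM at 24 h, and at 17.1, 16.6, 16.9 and 20.8 CPM at 72 h. Every mouse at 3 and 24 h was above every control mouse, and the mice at 72 h were not. The log2 fold changes were 6.27 ± 0.17 (edgeR adjusted p = 1.3e-28), 2.01 ± 0.21 (adjusted p = 4.4e-09) and -0.10 ± 0.30 (adjusted p = 0.92). Irf7, the transcription factor that amplifies the response, rose from 1.76, 7.06 and 8.46 CPM to 478, 289, 303 and 344 CPM at 3 h and to 33.5, 55.1, 52.6 and 57.8 CPM at 24 h, again without overlap (log2 5.87 ± 0.25 and 3.12 ± 0.31), and was at 1.89 to 7.95 CPM at 72 h. Ifit1, which binds viral RNA, had 3 UMIs in the controls together and 728 at 3 h, a ratio of 448 (95% exact counting interval 153 to 2178). Mx1, a GTPase that traps viral particles, had no UMI in the 3 control mice and 62.7, 22.4, 51.1 and 41.7 CPM at 3 h, at least 44.3-fold higher against a floor of 3 counts over the control group.

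A UMI of Isg15 was found in all 129 gated cells at 3 h and in 23.1% of the 199 control cells, although the 3 h cells were shallower. For Ifit1 the shares were 93.0% and 1.5%, and for Irf7 96.1% and 9.0%. At 24 h, 51.3% of the 396 gated cells had an Isg15 UMI and 18.4% an Ifit1 UMI, and at 72 h 22.9% and 4.3% of 280. After thinning to 4000 UMIs per cell the share with Isg15 was 9.0% in control, and 96.1, 21.3 and 5.0% at the 3 times after IFNα. The Elane-high cells of the same library, at 907 CPM of Isg15 at 3 h, held a UMI of Isg15 in 100% and of Ifit1 in 88.8%, so no cell type that lacks these genes gives a background share, and the part of free RNA in the shares was not tested.

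**Figure D2:**
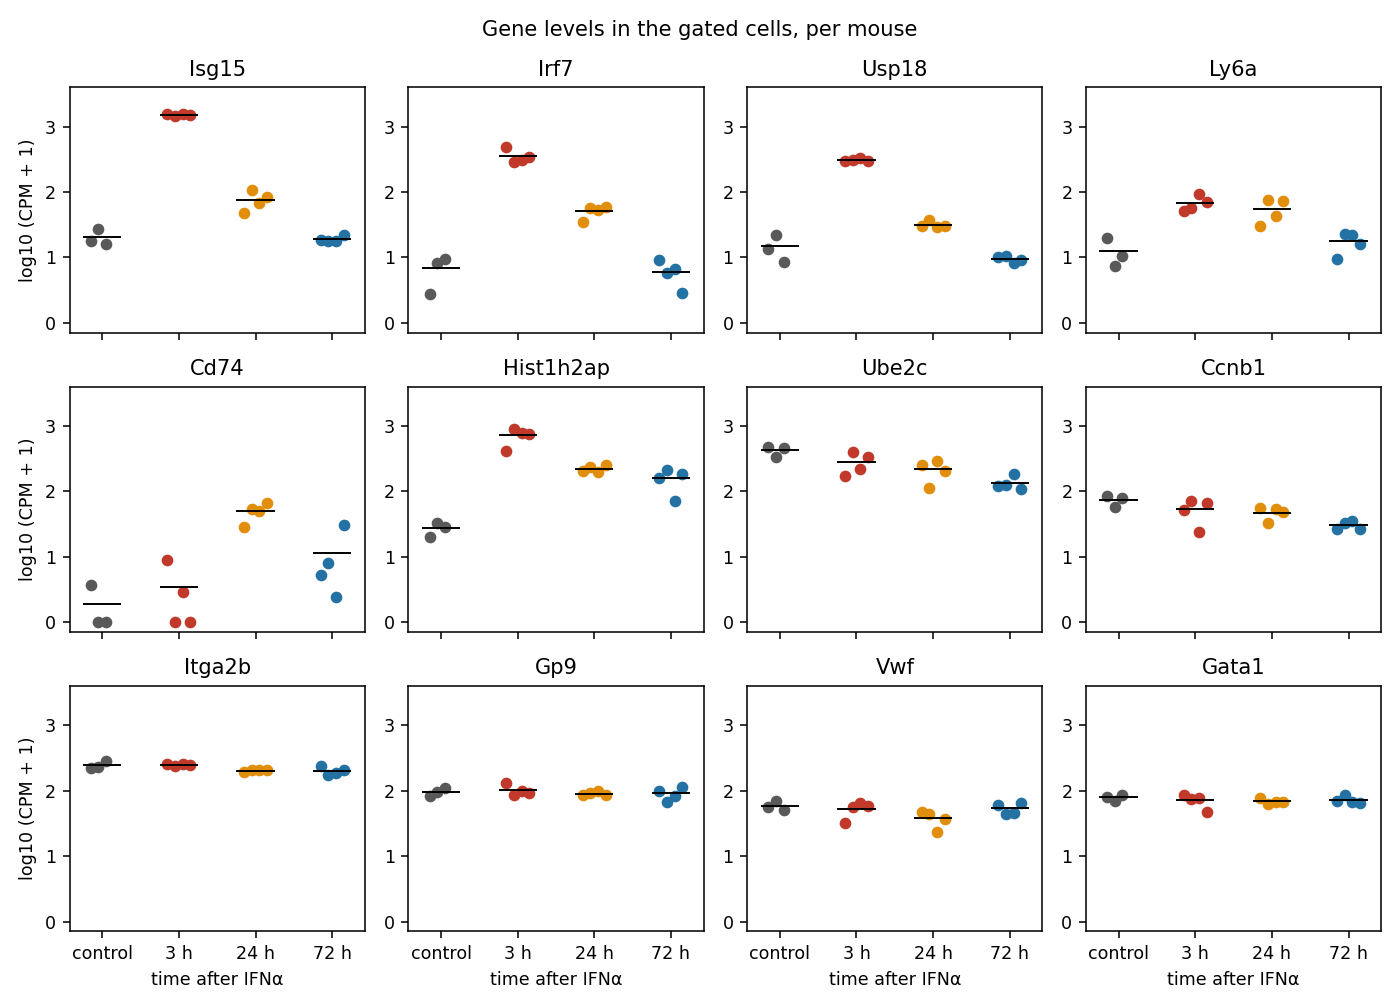
Levels of 12 genes in the gated cells of each mouse, as log10(CPM + 1) on the y axis, with the 4 groups on the x axis and a bar at the group mean (3 control mice, 4 mice at each time). Isg15, Irf7 and Usp18 are highest at 3 h, Cd74 is highest at 24 h, Ube2c and Ccnb1 are lowest at 72 h, Vwf is lowest at 24 h, and Itga2b, Gp9 and Gata1 show no called change.

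Of the 8 tested components of the receptor and ISGF3, 5 rose at 3 h, among them Stat2, Irf9, Irf7 and Irf1, and Irf7 was the member called at 24 h. The receptor chains themselves did not pass at any time, with mean levels of 11.3, 7.74, 14.9 and 11.8 CPM for Ifnar1 and 43.7, 46.8, 47.9 and 42.4 CPM for Ifnar2 in control and at 3, 24 and 72 h. Stat2 rose from 5.27, 5.49 and 7.52 CPM to 19.6, 26.9, 37.8 and 26.3 CPM at 3 h. Negative regulators of the pathway followed: Usp18, a protease that removes ISG15 and blocks the receptor, rose by 4.44 ± 0.17 and Socs1, an inhibitor of JAK kinases, by 1.74 ± 0.27 on the log2 scale at 3 h. The call of Usp18 at 24 h (1.14 ± 0.22) was lost without control mouse 3, at 0.87.

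The promoters of the genes that moved together were searched on either strand for GAAA followed, after any 2 bases, by GAAA, the core letters of an interferon-stimulated response element, in the 250 bases before the annotated start (RefSeq, GRCm38.p6, 6581 of the 8453 tested genes matched by symbol). The letters were found in 3.46% of 27025 promoters and in 3.49% of those of tested genes. They were found in 22.1% of the 195 matched genes called higher at 3 h, in 40.5% of 37 at 24 h and in 1 of 20 at 72 h. Among matched list members they stood in 13 of 26 antiviral effectors, 8 of 8 interferon-inducible GTPases, 2 of 7 feedback inhibitors, 3 of 15 MHC class I genes and 1 of 7 components of the receptor and ISGF3. They also stood in 2 of 12 platelet granule proteins, 1 of 14 platelet surface receptors, 0 of 16 megakaryocyte transcription factors, 0 of 13 cytoskeletal genes and 1 of 25 genes of G2 and mitosis. Overlapping matches count once per promoter, and a match describes letters and shows no binding. Stretches around the matches are printed for 4 ISGs of large rise, written 5′ to 3′ on the strand of the gene with the matching bases in capitals: Ifit1 (chr19:34640755-34640843, plus strand), Ifit3 (chr19:34583343-34583446, plus strand), Isg15 (chr4:156200845-156200926, minus strand) and Rsad2 (chr12:26456533-26456602, minus strand). Ifit1 and Ifit3 hold 2 separate matches each, Isg15 a run of 3 overlapping ones and Rsad2 1. Irf7 and Oasl2, which also rose at 3 h, had been chosen for printing too. They are left out because the first promoter listed for the gene held no match or no promoter was listed.
Ifit1: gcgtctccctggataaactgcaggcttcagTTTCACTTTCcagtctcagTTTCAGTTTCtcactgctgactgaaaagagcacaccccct
Ifit3: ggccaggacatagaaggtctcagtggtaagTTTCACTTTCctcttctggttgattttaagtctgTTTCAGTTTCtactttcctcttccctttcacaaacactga
Isg15: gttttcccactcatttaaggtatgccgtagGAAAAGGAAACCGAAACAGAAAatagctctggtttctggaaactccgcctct
Rsad2: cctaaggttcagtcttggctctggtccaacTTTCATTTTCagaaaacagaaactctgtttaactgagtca

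The matches nearest to the start lie 85 bases before it in Ifit1, 122 in Ifit3, 66 in Isg15 and 120 in Rsad2. Rsad2, which makes an antiviral nucleotide, went from 1.76, 6.28 and 0 CPM to 266, 227, 257 and 268 CPM at 3 h and was still at 11.2, 30.9, 17.5 and 21.9 CPM at 24 h, above every control mouse (log2 2.91 ± 0.43). Ifit3 had 1 UMI in the controls and 98 at 3 h, and at 24 h stood at 0.70, 2.55, 2.70 and 3.92 CPM (log2 2.75 ± 0.97, adjusted p = 0.11). Ifit1 was called at 24 h (140 UMIs, a ratio of 20.0 with a counting interval of 6.72 to 98.3).

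Other genes with large rises at 3 h were Iigp1, an immunity-related GTPase (0.88, 0.78 and 2.82 CPM in control, 313, 231, 312 and 331 CPM at 3 h, log2 7.58 ± 0.36), and Cxcl10, a chemokine, with 1 UMI in control and 65 at 3 h. Gm4955, Gbp6 (ENSMUSG00000104713), Pydc4, F830016B08Rik and Ifit1bl1 had no UMI in the controls and between 17 and 31 at 3 h, which makes them at least 10.5- to 19.1-fold higher. Iigp1 was still raised at 24 h (6.97, 35.7, 21.6 and 27.5 CPM, log2 4.04 ± 0.54) and at 72 h stood at 9.17, 10.7, 9.86 and 4.42 CPM, above every control mouse with an adjusted p of 0.051, which fell under 0.05 in several alternative fits.

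Of 18 tested genes of MHC class I and peptide loading, H2-T22, Tap1, Tapbp, Tapbpl and Nlrc5 were called at 3 h and 0 at 24 h by edgeR or DESeq2, where 14 had an unadjusted p under 0.05. Under the adjusted p alone 13 rose at 3 h and 11 at 24 h, with list medians of 0.70 and 0.40. Of all tested genes 7.11 and 2.93% rose under the adjusted p alone at these times, and 3.31 and 0.686% were called higher. The calls of Tap1 (log2 1.02) and Tapbpl (1.14) at 3 h were near the limits. Tap1 was lost without control mouse 3 or 3 h mouse 1 or 3 (0.93 to 0.97), and Tapbpl without control mouse 1 or 3 h mouse 2 or 3 (0.95 to 1.07). Cd74, the invariant chain of MHC class II, stood at 2.64, 0 and 0 CPM in control, at 7.84, 0, 1.89 and 0 CPM at 3 h, at 27.2, 52.0, 48.6 and 65.0 CPM at 24 h, and at 4.28, 7.11, 1.41 and 29 CPM at 72 h. All mice at 24 h were above the controls, while those at 3 and 72 h overlapped them, and the ratio of UMIs to control was 55.8 (counting interval 19 to 272, from 3 and 390 UMIs). H2-Aa and H2-Eb1, chains of class II molecules, rose with it at 24 h by 3.12 ± 0.47 and 3.54 ± 0.55 on the log2 scale. A UMI of Cd74 was found in 17.4% of the gated cells at 24 h against 1.0% in control. In the Hlf stem cell gate Cd74 stood at 84.6 CPM in control and 419 CPM at 24 h without TMM scaling. Of the gated cells of the 24 h mice, 21.5, 19.3, 20.7 and 19.3% also met the Hlf conditions, against 16.7, 14.1 and 10.0% in control. After thinning to 4000 UMIs these shares overlapped, at 0, 4.35, 2.47 and 4.55% at 24 h and 5.0, 1.41 and 3.33% in control. The part of cells that met the Hlf conditions in the rise was not tested. At 72 h Cd74 was called (log2 3.69 ± 0.91), with overlap of the mice, and the call was lost without 72 h mouse 4, the highest (2.22), and without control mouse 2 or 3 (3.09 and 3.22). Ly6a, which encodes the Sca-1 surface marker of stem cells, rose from 18.5, 6.28 and 9.4 CPM to 50.9, 56.1, 92.7 and 68.0 CPM at 3 h and to 28.6, 74.3, 42.5 and 70.6 CPM at 24 h, with no overlap at either time (log2 2.62 ± 0.37 and 2.34 ± 0.31), and the mice overlapped the controls at 72 h.

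**Figure D3:**
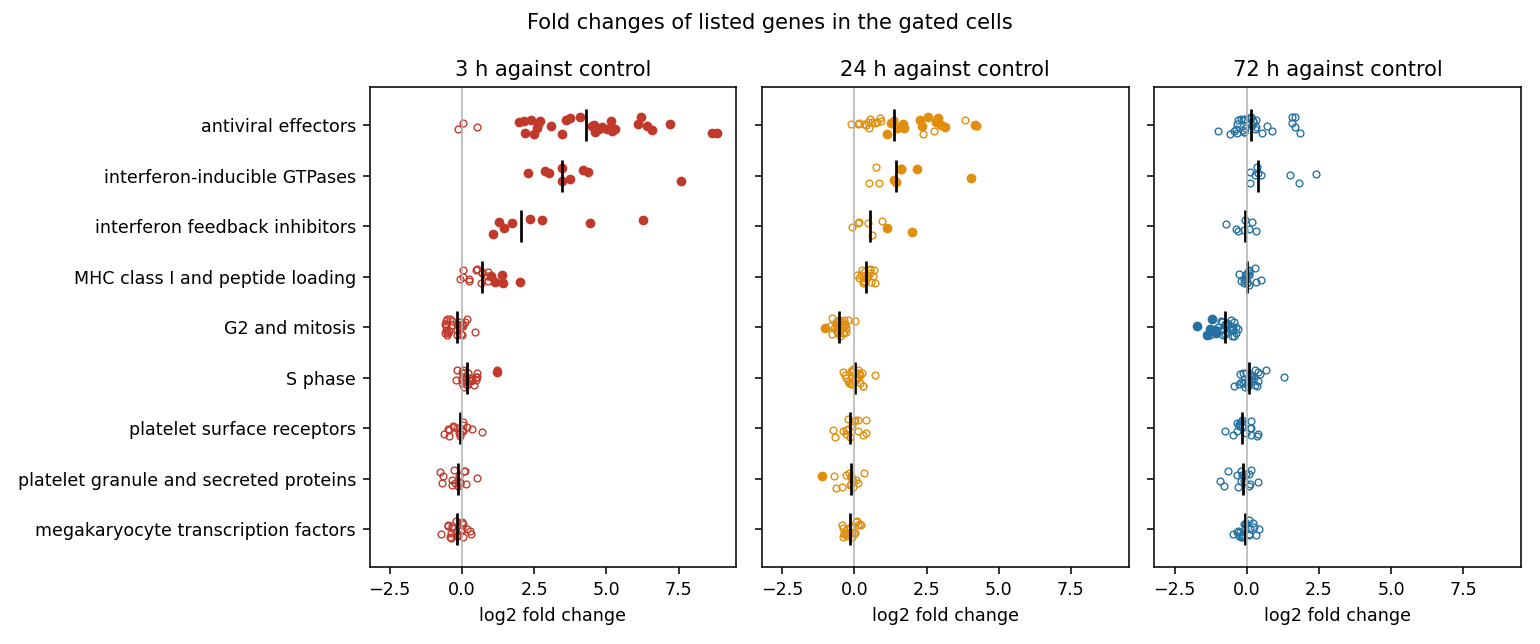
Log2 fold changes of the tested genes of 9 lists at 3, 24 and 72 h against control (x axis), one point per gene, filled where called, with a black line at the list median. The interferon lists are to the right of 0 at 3 h, with medians at 72 h of 0.14 for the antiviral effectors and 0.41 for the GTPases, the medians of the 3 megakaryocyte lists shown lie between -0.18 and -0.07, and the G2 and mitosis list moves left, to a median of -0.76 at 72 h.

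In each of 4 lists of megakaryocyte genes 0 or 1 were called, where 3.70, 0.840 and 0.911% of all tested genes were called at the 3 times, so that at 24 and 72 h they are near the background. Of 17 tested platelet surface receptors and 21 tested transcription factors of the lineage, 0 were called by edgeR or DESeq2 at any time, and of 14 tested cytoskeletal genes 0. Their unadjusted p was under 0.05 for 3, 4 and 5 surface receptors, 2, 4 and 6 granule proteins, 7, 8 and 7 transcription factors and 6, 3 and 6 cytoskeletal genes at 3, 24 and 72 h. Of 16 tested granule and secreted proteins 1 was called, Timp3, an inhibitor of metalloproteinases, lower at 24 h (log2 -1.11 ± 0.26, mice overlapping, not called without control mouse 2, at -0.79, or 24 h mouse 3, at -0.98). At an adjusted p under 0.05 with no fold limit, 2, 2 and 2 surface receptors, 2, 3 and 3 granule proteins, 4, 3 and 0 transcription factors and 0, 0 and 1 cytoskeletal genes were lower at 3, 24 and 72 h, against 1.86, 1.44 and 2.11% of all tested genes. Higher by the same measure were 0 surface receptors, 0, 1 and 1 granule proteins, 0, 1 and 1 transcription factors and 3, 1 and 2 cytoskeletal genes, against 7.11, 2.93 and 3.12% of all tested genes. List medians were -0.07, -0.14 and -0.18 for the surface receptors, -0.12, -0.12 and -0.14 for the granule proteins, 0.21, 0.01 and 0.01 for the cytoskeleton and -0.18, -0.16 and -0.07 for the transcription factors.

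Itga2b stood at 223, 228 and 283 CPM in control, at 251, 238, 259 and 250 CPM at 3 h, at 190, 208, 203 and 204 CPM at 24 h and at 236, 175, 185 and 206 CPM at 72 h. All mice at 24 h were below the controls, by a log2 difference of -0.27 ± 0.09 that did not pass (adjusted p = 0.081). Vwf was lower at 24 h, at 46.0, 42.4, 22.3 and 35.9 CPM against 56.2, 69.0 and 48.9 CPM (log2 -0.64 ± 0.17, adjusted p = 0.022), under the fold limit. Gata1 and Nfe2 did not pass at any time, and Fli1 was slightly lower at 24 h only under the adjusted p (log2 -0.37 ± 0.09, adjusted p = 0.008). Cd9, a tetraspanin of megakaryocytes and platelets, was lower in every treated mouse than in every control mouse, with log2 differences of -0.31, -0.28 and -0.33 (adjusted p = 0.022, 0.027 and 0.0078).

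Smaller shifts below the fold limit were found in single genes. Serpine2, a protease inhibitor of α-granules, went from 59.8, 59.6 and 74.3 CPM to 39.0, 38.9, 37.8 and 41.5 CPM at 24 h, with a log2 difference of -0.71 ± 0.15, and -0.67 ± 0.16 at 72 h. P2ry1, an ADP receptor, was at -0.73 ± 0.18 and -0.77 ± 0.20 at the same times. Plek, pleckstrin, a kinase C substrate of platelets, rose at 3 h from 167, 190 and 215 CPM to 357, 330, 280 and 349 CPM (0.77 ± 0.11, adjusted p = 7.5e-07) and was back among the controls at 24 h. Gp9, Slamf1 (CD150) and Ppbp passed at no time. Of 15 tested genes of thrombopoietin signaling, Socs1 and Pim1, a cytokine-induced kinase, were called at 3 h and 0 later by edgeR or DESeq2, when 4 and 2 had an unadjusted p under 0.05. The call of Pim1 (log2 1.03) was lost with library size scaling (0.86) and without control mouse 1 or 3 h mouse 1 or 3 (0.90 to 0.99).

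Genes of G2 and mitosis were lower, and in growing number, over the time course. Of 30 tested, 25, 29 and 30 were below the control mean at 3, 24 and 72 h, 1, 13 and 19 fell under the adjusted p alone, and 0, 1 and 6 were called. Of all tested genes 1.86, 1.44 and 2.11% fell under the adjusted p alone, and 0.390, 0.154 and 0.402% were called lower. The list medians were -0.17, -0.53 and -0.76. Called at 72 h were Ube2c, the ubiquitin carrier of the anaphase-promoting complex, Ccnb1, the mitotic cyclin B1, Cenpf, a kinetochore protein, Cdc20, Plk1 and Ttk. Ube2c stood at 482, 329 and 457 CPM in control, at 168, 397, 216 and 336 CPM at 3 h, at 255, 112, 291 and 205 CPM at 24 h and at 118, 122, 182 and 108 CPM at 72 h. The mice at 24 and 72 h were all below the controls and those at 3 h overlapped them (log2 -0.55 ± 0.21, -1.01 ± 0.18 and -1.72 ± 0.20, with adjusted p = 0.099, 0.00015 and 3.1e-08). The call at 24 h was on the fold limit and was lost, at -0.75 to -1.0, without control mouse 1 or 3 and without 24 h mouse 2 or 4, and 0 genes of the list were called at 24 h with DESeq2 or with the likelihood ratio test.

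Ccnb1 fell at 72 h from 83.5, 55.7 and 79.0 CPM to 25.1, 32, 33.8 and 25.3 CPM (log2 -1.37 ± 0.21), and Cenpf from 152, 147 and 196 CPM to 63.6, 78.2, 47.9 and 78.9 CPM (log2 -1.26 ± 0.18), each without overlap. The calls of Cdc20, Ttk and Plk1 were near the limit, lost without control mouse 3 in Cdc20 (-0.98) and Ttk (-0.92) and without 72 h mouse 1 in Plk1 (-0.96). Cdc25b, the phosphatase that starts mitosis, also fell at 72 h (26.5 CPM to 7.53 CPM in the mean, log2 -1.86 ± 0.33). Of 27 tested S phase genes, 1, the cyclin gene Ccne2, rose at 3 h, near the share of all genes (3.70%), and 0 were called later, where the shares were 0.840 and 0.911% (7 and 9 at an unadjusted p under 0.05, 0 with DESeq2, and 0 at 24 h and 1 at 72 h with the likelihood ratio test), with medians of 0.17, 0.02 and 0.08.

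**Figure D4:**
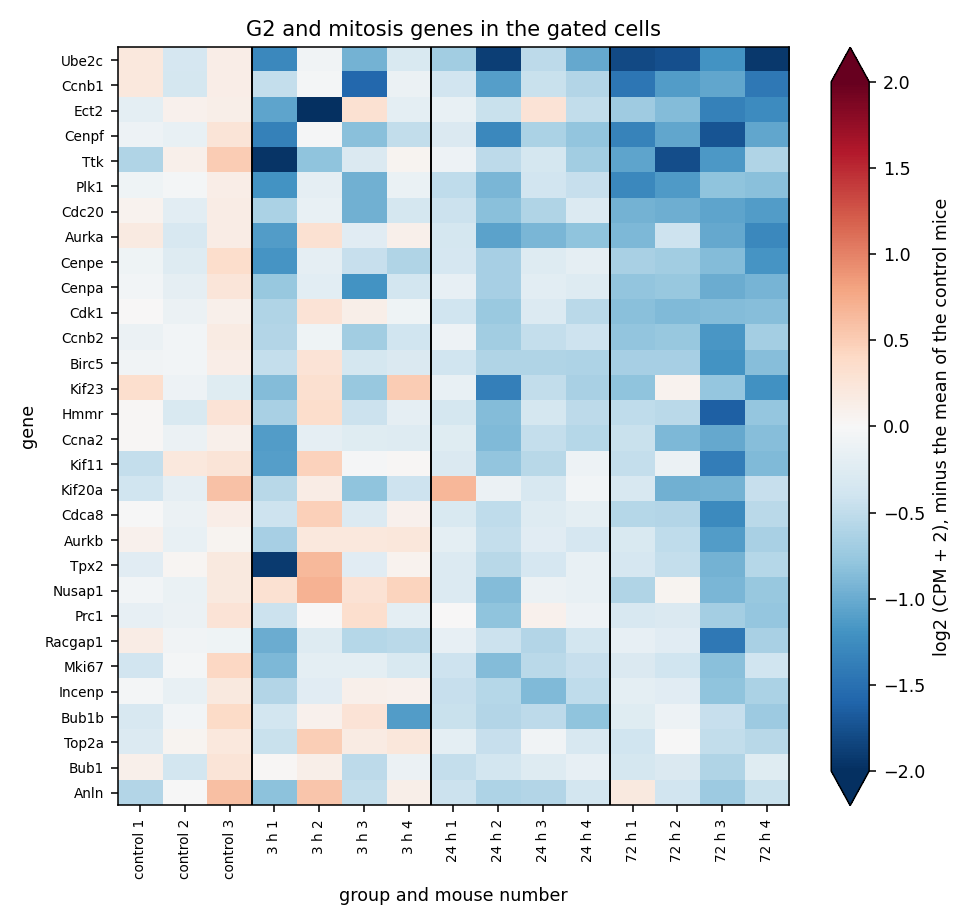
Log2(CPM + 2) minus the control mean (color) for the 30 tested G2 and mitosis genes (rows, in the order of their log2 fold change at 72 h) in the gated cells of 15 mice (columns, by group). Nearly all genes are below the control mean in the 72 h mice, while the 3 h mice differ among themselves, with mouse 2 nearest to the control mean, and control mouse 3 stands above the other control mice.

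Levels of 3 mitotic genes were lower at 72 h outside the megakaryocyte gate as well. Without TMM scaling, Ube2c stood at 438 CPM ± 87.2 (SD, n = 3) in the gate in control and 133 CPM ± 33.3 (n = 4) at 72 h. It stood at 166 and 42.1 CPM in the Hlf gate, at 298 and 139 CPM in the erythroid gate and at 119 and 49.3 CPM in the Elane-high cells. In the last, the level at 3 h was lower than at 72 h, at 33.3 CPM, which was not the order in the megakaryocyte gate (260 CPM at 3 h). Cenpf went from 171 to 67.3 CPM in the megakaryocyte gate, from 101 to 32 CPM in the Hlf gate, from 88.2 to 59.2 CPM in the erythroid gate and from 46.1 to 37.3 CPM in the Elane-high cells. Ccnb1 went from 75.5 to 29.1 CPM in the megakaryocyte gate and, in the same order, from 33.5 to 14.8, from 71.9 to 40.5 and from 36.6 to 28.1 CPM. In ratio, Cenpf and Ccnb1 thus moved less in the erythroid and Elane-high cells than in the megakaryocyte gate, and the difference between gates at 72 h was not tested. The share of gated cells with a Ube2c UMI was 33.2% in control and 24.3% at 72 h, and 23.6% and 12.6% after thinning.

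Beyond the interferon and mitotic genes, several of the largest shifts were found at like size outside the gate in the same libraries. Rpl35, a protein of the large ribosomal subunit, stood at 660, 756 and 651 CPM in control, 3667, 3626, 3738 and 3648 CPM at 3 h, 1573, 1680, 1686 and 1624 CPM at 24 h, and 2371 to 2546 CPM at 72 h. The 4 groups were fully apart, with a spread between the mice of a library much below the steps between libraries. In all kept cells outside the megakaryocyte gate its mean was 675 CPM in control and 3254, 1548 and 2439 CPM at 3, 24 and 72 h without TMM scaling, against 714, 3411, 1650 and 2484 CPM inside it. Polr2l, a small subunit shared by the RNA polymerases, rose at 72 h by 1.84 ± 0.18, from 17.7 to 60.6 CPM in the gate and from 19.8 to 57.0 CPM outside it. Its level was higher at 3 h, at 91.2 CPM in the gate and 89.5 CPM outside it, and lower at 24 h, at 31.7 and 32.2 CPM. These means of Polr2l are without TMM scaling. Nutf2, a nuclear import factor, fell at 72 h from 65.0, 67.5 and 60.2 CPM to 14.7, 14.2, 18.3 and 17.7 CPM (log2 -1.99 ± 0.17), and outside the gate from 57.2 to 18.4 CPM. Rnaset2a and Rnaset2b, near-identical copies among which reads can be split in an uncertain way, fell by 1.44 and 1.47 on the log2 scale.

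Histone genes were among the genes that rose in the gate. Counted by symbol start, a group chosen after its values were seen, 24 of 43 tested histone genes rose at 3 h, 6 at 24 h and 8 at 72 h, with medians of 1.43, 0.47 and 0.61. Hist1h2ap, an H2A gene, went from 19.3, 31.4 and 27.3 CPM to 411, 898, 789 and 755 CPM at 3 h and was at 197 to 247 CPM at 24 h and 70.4 to 212 CPM at 72 h. In kept cells outside the gate it stood at 19.2 CPM in control and 296 CPM at 3 h, against 26.9 and 662 CPM inside it without TMM scaling. In the Hlf gate, Hist1h4h rose at 3 h from 15.7 to 43.7 CPM (log2 1.72 ± 0.27), while Hist2h2ac went from 39.6 to 37.2 CPM and Hist1h1a from 65.7 to 34.4 CPM (log2 0.07 ± 0.31 and -0.65 ± 0.28). Fitted on the megakaryocyte gate alone, their log2 changes were 3.73 ± 0.29, 1.45 ± 0.22 and 0.94 ± 0.24. The 3 genes were called as different between these gates (adjusted p = 0.024, 0.036 and 0.016), and each call was lost after thinning and without control mouse 3 or 3 h mouse 2. Of all tested genes 3.31% rose and 0.390% fell at 3 h. Of 98 tested ribosomal protein genes, 12 rose and 1 fell at 3 h, of 13 mitochondrially encoded genes 3 rose at 3 h, 0 at 24 h (7 at an unadjusted p under 0.05, 1 called with DESeq2) and 3 at 72 h, and of 90 respiratory chain genes 5 rose and 1 fell at 3 h. Their medians at 3 h were 0.12, 0.34 and 0.15. One of them, mt-Nd4l, a subunit of complex I, rose from 38.7, 47.1 and 46.1 CPM to 184, 150, 131 and 156 CPM at 3 h, and outside the gate it went from 54.5 to 154 CPM.

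Falls at 3 h were fewer and rested on lower levels. Hspa1a, an inducible HSP70 chaperone, stood at 4.39, 28.2 and 59.2 CPM in control and had no UMI in the 4 mice at 3 h. It was also low in the other gates at 3 h, at 0.897 CPM in the Hlf gate and 3.1 CPM in the erythroid gate against 7.88 and 34 CPM in control. Klf3, a transcription factor of the erythroid and megakaryocyte lineages, stood at 5.27, 12.6 and 13.2 CPM in control and at 0, 2.24, 1.89 and 2.19 CPM at 3 h (log2 -2.47 ± 0.71, adjusted p = 0.019). Eya2, Cul7, Vps25, Cln8, Ccng2, Otud1, Dhx32 and Gm19590 fell by 1.61 to 2.33 on the log2 scale, each from 22.2 CPM or less. Of these genes and Klf3, Gm19590 alone also passed with DESeq2. Klf3 was lost as a call without control mouse 2 or 3 or 3 h mouse 3 (-2.29 to -2.50), Gm19590 without control mouse 3 or 3 h mouse 3 or 4 (-1.18 to -1.41), and each of the others without at least 1 mouse.

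Lists of metabolism and cell death held 0 to 4 called genes at 3 h, where 3.70% of all tested genes were called. Of 15 tested glycolysis genes, Hk2, hexokinase 2, and Pgk1, phosphoglycerate kinase, rose at 3 h, and Pgk1 at 24 and 72 h. Pgk1 stood at 25.5, 20.4 and 7.52 CPM in control, 82.3, 65.1, 94.6 and 92.1 CPM at 3 h, 43.9, 37.9, 42.5 and 37.0 CPM at 24 h and 36.7, 42.7, 31 and 44.2 CPM at 72 h, above every control mouse at each time. Both later calls were lost without control mouse 3, the lowest, at 0.81 and 0.78. In kept cells outside the gate Pgk1 went from 23.4 to 75.9, 48.4 and 35.9 CPM. Of 10 tested genes of necroptosis and pyroptosis, Mlkl, the pore-forming executioner of necroptosis, Casp1, Casp4 and the sensor Zbp1 rose at 3 h, and Zbp1 at 24 h. Of 8 tested BCL2 family genes 0 were called by edgeR or DESeq2 at any time, and 0 had an unadjusted p under 0.05. Mlkl rose from 18.5, 9.42 and 11.3 CPM to 58.8, 26.9, 32.2 and 35.1 CPM (log2 1.46 ± 0.31), and Zbp1 from 10.5, 5.49 and 0 CPM to 208, 150, 187 and 182 CPM (log2 5.01 ± 0.32). The call of Zbp1 at 24 h (1.72) was lost without control mouse 3 (1.20) or 24 h mouse 2 (1.30), and that of Casp4 at 3 h (1.14) without control mouse 1 (0.95) or 3 h mouse 1 (0.96).

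Markers of other cell types were followed in the gate, summed without TMM scaling. The summed level of 15 erythroid markers averaged 975 CPM in control mice 1 to 3 (1609 CPM with control mouse 4, which stood at 3511 CPM) and 859, 1286 and 1255 CPM at 3, 24 and 72 h, the last 978 CPM without 72 h mouse 3. Car2 was the most abundant of them and Alas2 was at 0 UMIs. Over the same control mice and the 3 times, neutrophil markers summed to 390, 310, 339 and 284 CPM with Prtn3 at the top, monocyte markers to 183, 188, 171 and 196 CPM with Lyz2, and basophil, mast cell and eosinophil markers to 45.0, 63.2, 60.0 and 30.2 CPM with Cpa3 (26 CPM at 3 h without mouse 2), while Cma1 and Epx were at 0. The neutrophil sum includes Elane, which the rule limits (57.6 CPM over the gated cells of control mice 1 to 3), so part of it is set by the rule. Lymphoid markers summed to 341, 300, 301 and 240 CPM, mostly Nkg7 (272 CPM over all mice), while Rag1, Cd3e, Cd79a and Cd2 were at 0. Stromal and endothelial markers summed to 34.2, 18.1, 33.6 and 31.4 CPM with Pecam1 at the top and Cdh5 at 0. Called among these markers were Hbb-bs, a hemoglobin chain, and Ms4a6c, a monocyte gene, higher at 3 h, Pecam1 lower at 3 h, and Car1 higher at 72 h. Ms4a6c went from 7.91, 12.6 and 3.76 CPM to 35.3, 56.1, 68.1 and 54.8 CPM, with no overlap. The other monocyte markers summed to 181, 175 and 170 CPM in control mice 1 to 3 and to 165, 108, 151 and 130 CPM at 3 h, lower in every mouse. Car1 at 72 h was set by 1 mouse, at 28.1, 155, 948 and 3.79 CPM against 11.4, 58.1 and 21.6 CPM in control, and the call was lost without 72 h mouse 3 (log2 0.61 in place of 2.88) and without control mouse 1 or 3. The change of Car1 turned negative in a stricter gate, in the gate without Pf4 and without gated cells high in other lineages (log2 -1.12 in the last). Hbb-bs was lost as a call without control mouse 1 or 2 (2.07 and 2.44), and Pecam1 without control mouse 3 or 3 h mouse 1, 3 or 4 (-0.94 to -1.15).

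The 3 h response of the gate was tested against that of cells outside it from the same mice, with the mouse as a block. Against the Hlf stem cell gate (1922 cells), 16 of 9877 genes (0.162%) were called by the same limits on adjusted p and on the size of the log2 difference, 11 with a log2 change that was higher in the megakaryocyte gate, sign included (0.111%), and 5 with a lower one (0.0506%). The log2 changes set side by side here come from a fit on each gate alone. Iigp1 had a log2 change of 7.58 in the megakaryocyte gate and 4.69 in the stem cells, from a control level of 1.55 against 30.9 CPM without TMM scaling, to 276 and 683 CPM at 3 h. Isg15 (6.27 against 5.19), Rtp4, a chaperone of receptor transport (4.75 against 3.27), and Plac8 (1.69 against 0.60) likewise had lower levels in the megakaryocyte gate both in control and at 3 h. For these 4 genes the larger change was one from a lower start, and not to a higher level. Ifit2 had the smaller change, 2.37 against 4.72, from 11.1 and 9.17 CPM in control to 54.4 and 215 CPM at 3 h. Socs1 changed by 1.74 against 3.20, from 11.4 and 12.0 CPM to 34 and 99.5 CPM. Bcl2, which protects from apoptosis, stayed at 111 and 114 CPM in the megakaryocyte gate and went from 89.8 to 44.2 CPM in the stem cells. The 16 calls moved widely with single mice: with control mouse 3 left out there were 9 and with 3 h mouse 1 left out 31, without 3 h mouse 2 there were 10, and thinning left 10, of which 1 was among the 16. The call of Iigp1 was lost without control mouse 2 (2.40 in place of 2.98) and that of Socs1 without any 1 of control mice 1 to 3 or 3 h mouse 2 (-1.35 to -1.53).

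Against the Klf1 and Car1 erythroid gate (1396 cells), 38 of 9568 genes (0.397%) differed, 11 with a higher log2 change in the megakaryocyte gate, sign included (0.115%), and 27 with a lower one (0.282%). With 1 mouse left out the count ranged from 25 to 55, and thinning lowered it further, as given in the section on processing. Several of the latter were ISGs with higher levels in the megakaryocyte gate in control. Ifitm3, a membrane protein that blocks viral entry, stood at 881 CPM in the megakaryocyte gate and 179 CPM in the erythroid gate in control and at 3087 and 2552 CPM at 3 h, log2 changes of 1.96 and 4.02. Ifi47, a GTPase, stood at 145 and 43.2 CPM in control and at 357 and 504 CPM at 3 h (1.44 and 3.73). Serpina3g, a protease inhibitor, stood at 131 and 6.27 CPM in control and at 541 and 140 CPM at 3 h (2.19 and 4.55), and Epsti1 at 50.3 and 7.36 CPM and at 247 and 170 CPM (2.47 and 4.69). Gbp2 was low in both gates in control, at 11.7 and 4.28 CPM, and reached 53.7 and 108 CPM. By list, 4 of 33 antiviral effectors, 3 of 8 feedback inhibitors, 2 of 18 MHC class I genes and 1 of 10 GTPases had a lower log2 change in the megakaryocyte gate, and 0 genes of these lists a higher one, with list medians of the difference of -0.84, -0.92, -0.65 and -0.30 against -0.030 over all genes tested. Of 8 nucleic acid sensors and 9 components of the receptor and ISGF3, 0 were called in either direction, with medians of 0.019 and -0.38.

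Among the genes with a higher log2 change, Isg20, an RNA exonuclease, rose from 31.7 to 321 CPM in the megakaryocyte gate and from 109 to 433 CPM in the erythroid gate. The largest differences belonged to globin genes and to Dntt, which had 2 and 17 UMIs in the megakaryocyte gate, the 17 all in 3 h mouse 1. In the erythroid gate Dntt had UMIs in control mouse 3 alone, and without that mouse its difference went from 9.68 to 3.71 and was not called. Hba-a1, Hba-a2 and Hbb-bs had 0, 0 and 7 UMIs in the megakaryocyte gate in control and 7, 14 and 22 at 3 h, while in the erythroid gate they went from 3229, 995 and 2793 UMIs to 105, 18 and 32, with 597, 7.69 and 321 CPM of Hbb-bs in control mice 1 to 3. These fitted differences of 7.48 to 10.9 on the log2 scale thus rest on few UMIs in the megakaryocyte gate and on unequal control mice in the erythroid gate. Of the surface receptors, granule proteins, cytoskeletal genes and transcription factors of the lineage, 0 were called in their 3 h difference from either gate by edgeR or DESeq2, with 9 and 13 unadjusted p under 0.05 over these lists against the stem cell and the erythroid gate. Of the genes of thrombopoietin signaling, Socs1 differed from the stem cell gate (-1.45 ± 0.35, adjusted p = 0.036, not called with DESeq2).

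**Figure D5:**
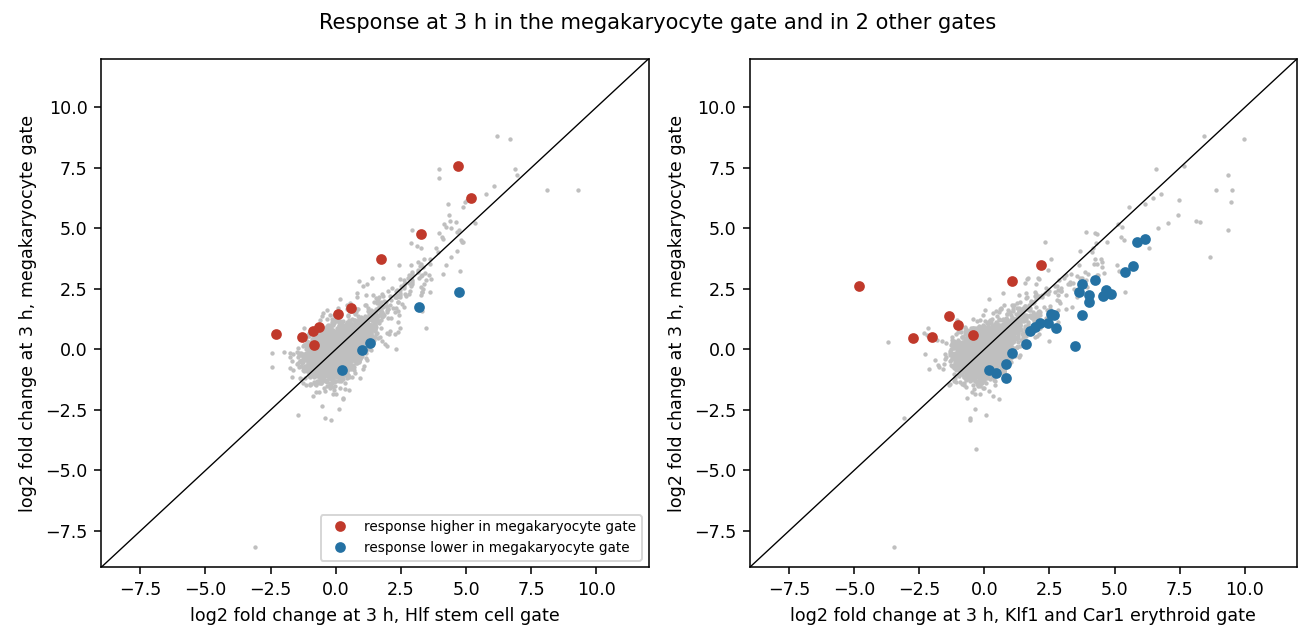
Log2 fold change at 3 h in the megakaryocyte gate (y axis) against that in the Hlf stem cell gate (left, x axis, 8362 genes) and in the erythroid gate (right, 8102 genes), one point per gene tested in both, with the called differences in red (log2 change higher in the megakaryocyte gate, sign included) and blue (lower). In the left panel most genes with a rise lie near the diagonal. In the right panel the called ISGs lie mainly below it. The median tested differences from the erythroid gate, called genes or not, were -0.84 for antiviral effectors, -0.92 for feedback inhibitors and -0.65 for MHC class I genes. They were -0.30 for the GTPases, -0.38 for the receptor and ISGF3 and 0.019 for nucleic acid sensors, against -0.030 over all genes.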

How the data were processed

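Droplet 3′ libraries of hashtagged mice, 1 per time point, were aligned by the authors with Cell Ranger 3.1.0 to mm10 and demultiplexed with Seurat. The deposited files hold raw UMI counts per gene and cell (27998 genes), with the hashtag assignment of each cell. Hashtag doublets and negatives (the assignment of the authors), cells with over 5% mitochondrial UMIs and cells with under 700 genes were left out, and no further doublet caller was run. The study's methods call the hashtags of a time point batches, while here each is taken as the mouse it marks.

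UMIs of the gated cells were summed per mouse where a mouse had at least 10 gated cells, filtered with filterByExpr, scaled by TMM and fitted over all 4 groups with edgeR 4.0.16 (glmQLFit, glmQLFTest, R 4.3.3, limma 3.58.1) with no covariate, and p-values were adjusted by Benjamini-Hochberg over all tested genes. For the difference between gates the mouse was a block. DESeq2 1.42.0 and edgeR's likelihood ratio test, the scaling, the low count filter, the gate limits, thinning and leaving out each mouse were the alternatives. Shares were compared by exact permutation with SciPy 1.17.1, and Python 3.11.15, NumPy 2.4.6, pandas 2.3.3 and matplotlib 3.10.9 were used for tables and plots. Intervals of counts and detected shares (95%, exact) cover counting error only. The fits were also run on simulated counts, scored at an adjusted p under 0.05 without the limit on the fold. For the comparison of 3 h with control (8197 genes), the fit recovered 65.3% of 2-fold and 97.9% of 4-fold changes with 10 false calls. For the difference from the stem cell gate (9665 genes) it recovered 45.0% and 74.7% with 4. These figures do not describe the calls of the text, which also needed the limit on the fold.

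The members, the 24 lists (371 genes, 4 of them not matched by symbol, among them Gbp6, which carries an identifier and is in no list count) and the tests were chosen with earlier results of these data known. Named were 16 set genes of the lineage and the pathway, the 10 largest rises and falls at each time among called genes of at least 10 CPM whose mice did not overlap, up to 4 called members per list, and the 8 largest differences between gates in each direction. A few of these genes are not reported here. Some others, among them Cenpf, H2-Eb1, Mlkl and the histone list, were named after their values were seen, as was the gate without Pf4. Symbols that occur more than once (65) carry their gene identifier. Promoters are RefSeq sequences of GRCm38.p6, matched by symbol.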

Additional observations from a re-analysis of the deposited data

Results flagged for a closer look

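Among 284 groups of 4 mice tested for a sample far from the others, 14 were picked out because the gap between an extreme mouse and its nearest neighbor, as a part of the whole range, was above Dixon's 95% critical value, and chance alone picks out about 1 in 20. At 3 h these were Casp1 (0.981 of the range, CPM between 28.4 and 70.5), Klf3 (0.843, between 0 and 2.24), Ms4a2 (0.901, between 0 and 38.1), Nkg7 (0.903, between 259 and 375) and Nt5c3 (0.878, between 149 and 184). At 24 h they were Cd9 (0.915, between 419 and 447) and Nkg7 (0.916, between 259 and 382). At 72 h they were Car1 (0.840, between 3.79 and 948), Fli1 (0.885, between 170 and 210), Isg15 (0.876, between 16.6 and 20.8), Mx1 (1, between 0 and 0.631), P2ry1 (0.893, between 19 and 30.6), Polr2l (0.882, between 54.9 and 62.8) and Srgn (0.849, between 1417 and 1541).

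The tested differences between the 3 h responses of gates are given as log2 changes in the megakaryocyte gate minus those in the other gate. From the Hlf stem cell gate, Ifit2 differed by -2.32, Socs1 by -1.45, Rgs1 by -1.11, Snx2 by -1.05 and Nt5c3 by -1.01. Iigp1 differed by 2.98, Slpi by 2.93, Hist1h4h by 2.05, Ctsg by 1.80, Hist1h1a by 1.65, Stk17b by 1.64, Rtp4 by 1.52 and Hist2h2ac by 1.41. Ctsg stood at 34.6 and 42.5 CPM in the megakaryocyte gate and went from 512 to 185 CPM in the stem cell gate.

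From the erythroid gate, Nupr1 differed by -3.32, Gbp2 by -2.57, Serpina3g by -2.37, Ifi47 by -2.30, Trim30d by -2.26, Epsti1 by -2.25, Ifi203 by -2.22 and Ifitm3 by -2.08. Hba-a2 differed by 10.9, Dntt by 9.68, Hba-a1 by 9.13, Hbb-bs by 7.48, Tyrobp by 3.1, St3gal6 by 2.67, Ctsg by 2.40 and Cpa3 by 1.96. Dntt had 2 UMIs in control and 17 at 3 h, all in mouse 1, in the megakaryocyte gate, and 37 in control, all in mouse 3, and 0 at 3 h in the erythroid gate. Cpa3 was not called without 3 h mouse 2 (1.10), after thinning (0.82) or without the 5% of gated cells with most UMIs (0.83). With no limit on Elane, Ctsg differed by 0.85 from the erythroid gate and 0.20 from the stem cell gate, and neither was called. Thinning also ended the calls of Epsti1 (-1.26), Trim30d (-1.41) and Stk17b (1.07), and the gate without Pf4 that of Hba-a1 (3.83).

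In droplets outside the kept cells, 11.9% of 452 hashtag multiplets and 0.209% of 959 hashtag negatives met the gene conditions of the megakaryocyte gate. Among kept cells 1004 of 10046 did. The limits on mitochondrial UMIs and on detected genes were not applied to the multiplets and negatives.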

How the results depend on the processing

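Of 317 named gene results, 169 were called, and 95 of these stayed on their side of the threshold in all of the alternatives run. The counts of changed genes were 188 at 3 h after thinning to 4000 UMIs, 43, 44 and 33 at 24 h with DESeq2, a stricter gate and thinning, and 51 and 45 at 72 h with DESeq2 and thinning. For the difference from the stem cell gate they were 37 with the likelihood ratio test, 7 with DESeq2, 41 with no filter on low counts, 34 with the stricter gate, 9 with no limit on Elane, 10 without the 5% of gated cells with most UMIs and 10 with thinning, of which 1 was shared. For the difference from the erythroid gate they were 24 with DESeq2 and 10 with thinning. The log2 fold change of Car1 at 72 h turned to -0.89 in the stricter gate, -1.12 without gated cells high in other lineages and -0.80 in the gate without Pf4, and that of Mpo at 3 h to -1.14 without the 5% of gated cells with most UMIs (and, not passing the test, to -1.37 with no limit on Elane), and the cause was not tested.

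With 1 mouse left out, the counts ranged from 277 to 318 at 3 h, 47 (without 24 h mouse 2) to 76 at 24 h, 71 to 97 at 72 h, 9 (without control mouse 3) to 31 (without 3 h mouse 1) for the stem cell difference and 25 (without control mouse 3) to 55 for the erythroid one. The differences in share ranged from -2.25 to -0.068, 1.14 to 3.32 and 0.496 to 3.5 percentage points. With the hashtag number as a block, 316, 72 and 83 genes were called. Same-numbered mice of different libraries had a mean correlation of 0.0092 over 21 pairs, between -0.055 and 0.054. Mice of other numbers had one of -0.0031 over 63 pairs, between -0.079 and 0.063. The main fits did not pair mice by number, and whether a number marks a shared batch was not tested further. The number of cells limits the precision, with 20 to 43 gated cells per mouse at 3 h.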
